A study of Homo sapiens with 4 samples.

Results

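The genes of the DNA replication machinery were examined in a chromatin immunoprecipitation sequencing (ChIP-seq) study of RNA polymerase II (Pol II) in U2OS cells, a human osteosarcoma line. One arm received an siRNA against NKAP, a nuclear RNA-binding protein with roles in splicing and transcriptional repression (NKAP knockdown), and the other a control siRNA (control), in both for 48 h. Fixation took 10 min in 1% formaldehyde. With 1 Pol II ChIP library in each arm, the spread between replicates is unknown, and the arms are compared without p-values. An input library without antibody existed for each arm, but only the 2 Pol II ChIP libraries had a file here. The members are 45 genes, listed by name for their part in replication, of the 19970 protein-coding genes on chromosomes 1 to 22 and X. All 45 were found in the RefSeq gene table of GRCh38. Peaks were counted from 5000 bp before a gene to 5000 bp after it, in the deposited peak list of each library.

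DNA replication starts where the origin recognition complex (ORC), CDC6 and CDT1 load the MCM2 to MCM7 helicase ring onto chromatin, a step called licensing. The kinase CDC7 with its activator DBF4, together with CDC45, the GINS complex and MCM10, then turns the ring into a working helicase. DNA polymerase alpha with primase lays down primers, polymerases delta and epsilon extend them on the sliding clamp PCNA, which the RFC complex loads, and FEN1 and LIG1 join the lagging strand. Ribonucleotide reductase (RRM1 and RRM2), thymidylate synthase (TYMS) and thymidine kinase (TK1) supply the nucleotides. Many of these genes are known targets of the E2F factors, which switch them on as cells enter S phase. By these roles the members fall into 14 genes of origin licensing, 8 of helicase activation, 11 of polymerases and primase, 8 of the clamp, its loader and the lagging strand, and 4 of nucleotide supply.

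The promoters of the members carried the letters of an E2F site more often than promoters in general. The RefSeq promoter table (GRCh38.p14), which gives 250 bases before to 50 bases from each annotated start, held 41 of the 45 members. MCM4, MCM5, POLD3 and GINS4 were not matched there. The letters TTTCGCGC or TTTGGCGC, on either strand, were found for 10 of these 41 genes (24.4%) and for 315 of all 15811 protein-coding genes in the table (1.99%). The CCAAT letters bound by NF-Y were found for 23 of the 41 (56.1%, against 42.1% of all genes), and the GGGCGG letters bound by Sp1 for 31 (75.6%, against 64.3%). By group, the E2F letters were found at 5 of 12 licensing genes, 1 of 7 helicase activation genes and 4 of 10 polymerase and primase genes, and at none of the 8 clamp, loader and lagging strand genes or the 4 nucleotide supply genes in the table. A match is a description of these letters and not a site shown to be bound. No other forms of an E2F site were searched, so a promoter without a match was not shown to lack one.

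The 10 promoters with E2F letters are shown so that the matches can be placed against the annotated start, the point from which summits are measured below. Each line runs 5′ to 3′ on the strand of the gene, from 160 bases before the start to the 20th base of the gene. Capitals mark TTTCGCGC, TTTGGCGC or CCAAT on either strand, where overlapping matches run together and the opposite strand reads GCGCGAAA, GCGCCAAA or ATTGG.
CDC6 (chr17:40287719-40287898, plus strand): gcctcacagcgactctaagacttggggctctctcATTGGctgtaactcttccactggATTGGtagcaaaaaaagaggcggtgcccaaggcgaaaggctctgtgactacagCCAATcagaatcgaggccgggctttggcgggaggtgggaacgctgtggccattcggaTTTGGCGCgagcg
MCM2 (chr3:127598251-127598430, plus strand): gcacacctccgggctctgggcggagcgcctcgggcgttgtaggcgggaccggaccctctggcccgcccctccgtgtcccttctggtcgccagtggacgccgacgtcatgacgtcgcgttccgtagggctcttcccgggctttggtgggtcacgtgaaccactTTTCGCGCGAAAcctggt
MCM3 (chr6:52284723-52284902, minus strand): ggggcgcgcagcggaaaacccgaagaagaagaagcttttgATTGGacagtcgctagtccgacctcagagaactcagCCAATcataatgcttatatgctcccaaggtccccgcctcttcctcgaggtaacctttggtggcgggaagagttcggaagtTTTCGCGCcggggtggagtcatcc
MCM6 (chr2:135876424-135876603, minus strand): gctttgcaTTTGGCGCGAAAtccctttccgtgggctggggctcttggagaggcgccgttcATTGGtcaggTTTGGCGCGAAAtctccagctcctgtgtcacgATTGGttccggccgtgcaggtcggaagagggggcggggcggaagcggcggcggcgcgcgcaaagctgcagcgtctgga
MCM7 (chr7:100101378-100101557, minus strand): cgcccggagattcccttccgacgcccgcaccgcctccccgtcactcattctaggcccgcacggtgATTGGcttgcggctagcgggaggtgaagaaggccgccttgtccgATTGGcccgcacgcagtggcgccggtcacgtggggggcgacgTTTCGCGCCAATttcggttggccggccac
GINS1 (chr20:25407513-25407692, plus strand): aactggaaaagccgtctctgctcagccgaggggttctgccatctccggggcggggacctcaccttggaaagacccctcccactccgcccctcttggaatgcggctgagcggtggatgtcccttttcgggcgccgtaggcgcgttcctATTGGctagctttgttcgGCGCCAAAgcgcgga
POLA1 (chrX:24693758-24693937, plus strand): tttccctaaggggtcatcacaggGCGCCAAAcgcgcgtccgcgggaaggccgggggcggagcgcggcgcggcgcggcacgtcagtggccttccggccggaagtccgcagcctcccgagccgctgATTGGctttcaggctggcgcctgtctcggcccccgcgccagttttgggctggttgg
POLA2 (chr11:65261802-65261981, plus strand): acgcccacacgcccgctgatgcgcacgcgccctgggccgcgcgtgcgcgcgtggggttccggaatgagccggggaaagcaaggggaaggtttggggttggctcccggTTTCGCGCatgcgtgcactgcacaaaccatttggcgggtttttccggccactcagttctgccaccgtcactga
POLE (chr12:132687323-132687502, minus strand): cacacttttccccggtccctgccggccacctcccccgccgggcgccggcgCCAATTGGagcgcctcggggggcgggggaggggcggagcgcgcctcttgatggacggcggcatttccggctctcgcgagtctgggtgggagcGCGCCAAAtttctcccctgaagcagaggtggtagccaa
POLE2 (chr14:49688195-49688374, minus strand): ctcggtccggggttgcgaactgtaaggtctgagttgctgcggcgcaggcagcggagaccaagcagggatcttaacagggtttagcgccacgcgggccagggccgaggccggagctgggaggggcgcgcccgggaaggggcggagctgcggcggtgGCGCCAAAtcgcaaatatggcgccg
In MCM6, a subunit of the helicase ring, the run TTTGGCGCGAAA, which holds both letter forms on opposite strands, began 152 and 90 bases before the start. In CDC6, MCM2 and GINS1 the E2F letters began within the first 10 bases of the gene, and in MCM3, MCM7 and POLE2 they began within 10 bases before it. In POLA1 they began 137 bases before the start, in POLA2 53 and in POLE 18.

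Every member but POLA1 had a Pol II peak in its window in both libraries. A peak touched the window of 44 of 45 members in both lists and of 1 member, POLA1, in the control list only. Without peaks within 1000 bp of an end of another gene, 32 of the 45 members had a peak in both lists. No such count over all genes is given. With all peaks kept, 12929 of all 19970 genes had a peak in both lists, 347 in the knockdown list only and 1066 in the control list only. At the ends of the genes, with a limit of 1000 bp, both lists had a summit for 41 members, the knockdown list alone for ORC4 and CDT1, and the control list alone for POLA1. ORC1, the largest ORC subunit, had none in either, and its summits lay at an annotated start about 5 kb inside the gene, 5051 bp from the outer end in the knockdown list. Over all genes, gene-end summits were in both lists for 10404, in the knockdown list only for 457 and in the control list only for 1039. POLA1, as 1 of 42 members with a control gene-end summit (2.38%), stands beside a background of 9.08% of the 11443 genes with a control gene-end summit. POLA1 encodes the catalytic subunit of DNA polymerase alpha and lies on chromosome X from 24693918 to 24996986. Its control peak was 386 bp wide, with 11 reads and a fold enrichment of 5.60 at a summit 48 bp after the start. The lowest summit in either list had 8 reads, so Pol II could be present there in the knockdown library below the threshold of the list. The 2 members named for the knockdown list only did have a control peak over their start. At ORC4 the control summit lay 1032 bp from the gene end, just past the limit, and at CDT1 a single control peak of 10958 bp covered the whole gene, with its summit 2582 bp after the end, near APRT.

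Fewer reads lay at the start summits of the replication genes in the knockdown library, and the shift was larger than over all genes. Reads at a summit were recovered from the fold and p of each peak, and knockdown reads were divided by the estimated depth ratio of 0.857 (scaled reads). Of 41 members with an annotated start, 39 had a summit within 1000 bp of it in both lists. POLA1 was the only one of 40 with a control start summit to lack one in the knockdown list (2.5%, against 7.53% of all such genes), and CDT1 the only one of 40 with a knockdown start summit to lack one in control (2.5%, against 3.01%). The 39 members had a median of 35.0 scaled reads in the knockdown library and 48 reads in the control library. The same medians over all 8884 such genes were 35.0 and 40. The knockdown over control ratio of scaled reads had a median of 0.755 over the members (quartiles 0.655 and 0.869), against 0.9001 over all genes (0.778 and 1.06). The ratio was below 1 for 33 of 39 members (84.6%), against 67.2% of all genes. It was more than 1.5-fold lower for 11 of 39 (28.2%), against 9.43% of all genes, and more than 1.5-fold higher for 0 of 39, against 2.92%.

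The median over all genes was -0.15 on the log2 scale, a shift that depends on the depth estimate. Relative to that median, the ratio of the members was 0.839, with 29 of 39 members below it. On this relative scale 3 members (CDC6, RFC3 and POLA2; 7.69%) were more than 1.5-fold lower, against 4.38% of all genes, and none was 1.5-fold higher, against 6.04%. The ratio over all genes was lower where peaks were stronger. With genes grouped by the mean of both libraries, it was 0.961 below 30 reads, 0.892 from 30 to 50, 0.880 from 50 to 70 and 0.856 from 70 up. The members had 0.749, 0.740, 0.887 and 0.655 in the same ranges, over 6, 19, 10 and 4 genes, so that in the range from 50 to 70 reads they lay level with all genes.

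**Figure D1:**
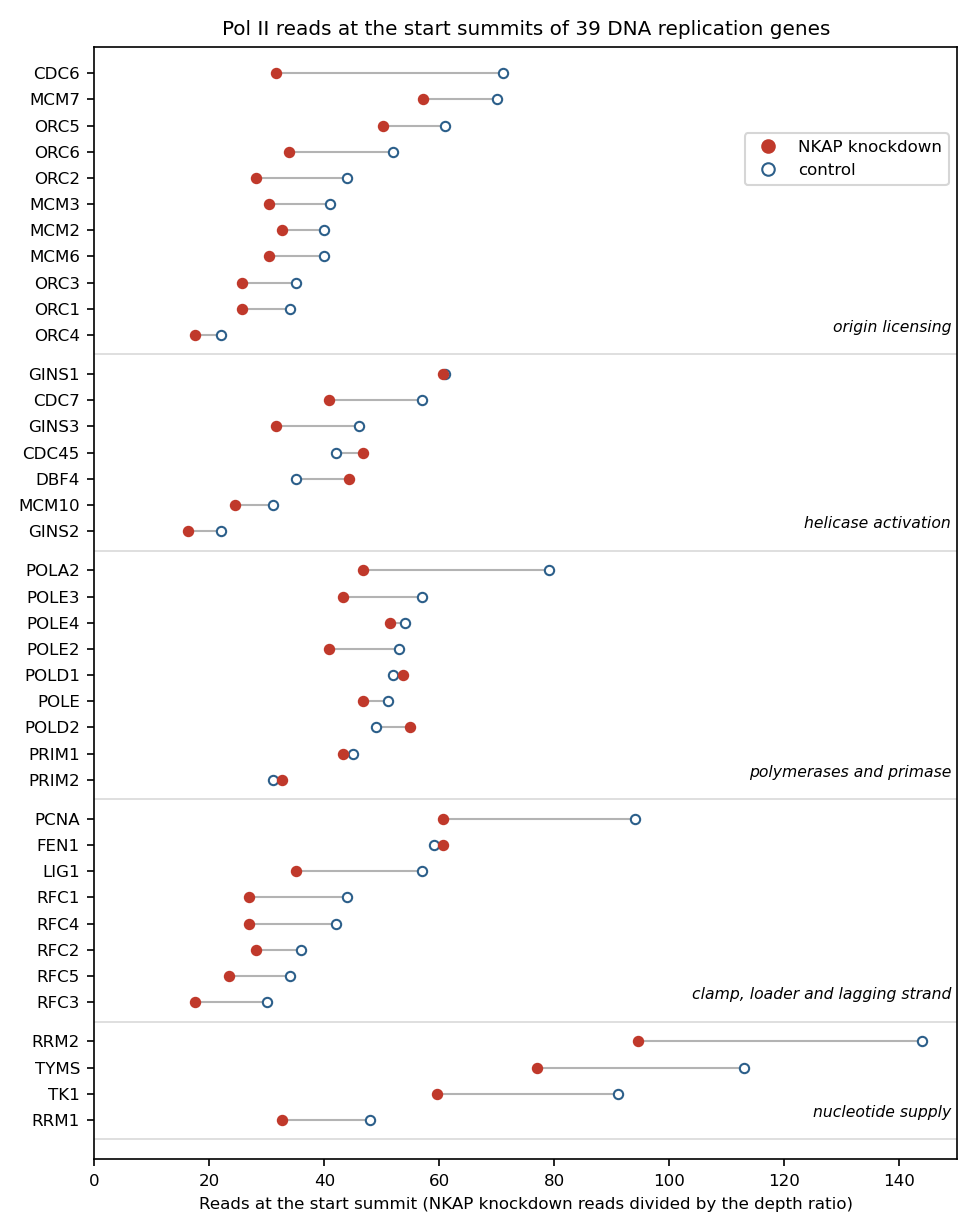
Reads at the start summit of the 39 members with a summit in both lists, 1 row a gene, grouped by role; the x axis gives reads, with knockdown reads divided by the depth ratio. Filled points are the NKAP knockdown library and open points the control library; the 4 nucleotide supply genes and all 11 licensing genes have the filled point on the left, and DBF4 has it farthest to the right of its open point.

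The 4 genes of nucleotide supply had ratios close to each other, and RRM2 and TYMS had the strongest start peaks of all members. RRM2, the small subunit of ribonucleotide reductase, whose level rises in S phase, lies on chromosome 2 from 10122568 to 10211010. It had 94.5 scaled reads (81 reads) in the knockdown library and 144 reads in the control library, the highest of all members in each. TYMS, which makes thymidylate and lies on chromosome 18 from 657653 to 673578, had 77.0 scaled reads in the knockdown and 113 in the control library. TK1, of the thymidine salvage pathway, had 59.5 and 91, and RRM1, the large reductase subunit, 32.7 and 48. The 4 ratios ran from 0.654 to 0.682, all below the median of all genes. Counting error alone gave the ratio of RRM2 an interval of 0.494 to 0.868 and that of RRM1 an interval of 0.411 to 1.11 (95%, exact). The fold enrichment of RRM1 was 6.73 in the knockdown list and 22.9 in the control list, a wider gap than in its reads, with 3.00 background reads taken by the caller in the knockdown and 1.14 in the control library.

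Of the 5 groups, the clamp, loader and lagging strand genes had the lowest median. The 8 genes of the clamp, its loader and the lagging strand had a median ratio of 0.642. PCNA, the sliding clamp, had its main peak not at the outer end of the gene but at the inner annotated start, with summits 6685 bp (knockdown) and 6756 bp (control) from the outer end. That summit had 60.7 scaled reads in the knockdown and 94 in the control library, with fold enrichments of 25.3 and 38.3. At the outer end, shared with CDS2, the folds were 5.98 in the knockdown and 7.02 in the control list. RFC3, a small loader subunit, had 17.5 scaled reads in the knockdown and 30 in the control library, the lowest ratio of this group at 0.584 (0.292 to 1.12). RFC1, the large subunit, had a ratio of 0.610, RFC4 0.639, RFC5 0.687 and RFC2 0.778. LIG1, the ligase that seals the lagging strand, had 35.0 scaled reads in the knockdown and 57 in the control library. FEN1, the flap nuclease, stood apart from its group, with 60.7 scaled reads in the knockdown and 59 in the control library. Its start is shared with TMEM258, and its summits lay at -402 bp (knockdown) and 48 bp (control) from that start.

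All 11 licensing genes with a start summit in both lists had fewer scaled reads in the knockdown library, against 67.2% of all genes. Their ratios ran from 0.444 to 0.823 with a median of 0.755. For 6 of the 11, another gene had a start on the opposite strand within 1000 bp. CDC6, the ATPase that recruits the helicase ring to ORC, lies on chromosome 17 from 40287879 to 40304657 and had the lowest ratio of all members. It had 31.5 scaled reads (27 reads) in the knockdown library and 71 reads in the control library, a ratio of 0.444 with a counting interval of 0.274 to 0.7002. The ring subunits MCM2, MCM3, MCM6 and MCM7 had ratios of 0.817, 0.740, 0.759 and 0.817. ORC subunits ran from 0.637 (ORC2) to 0.823 (ORC5). At ORC5 the fold enrichment was 8.16 in the knockdown list and 26.2 in the control list, while scaled reads were 50.2 and 61. At MCM7 the fold was higher in the knockdown list, with folds of 21.4 in the knockdown and 11.9 in the control list beside 57.2 and 70 scaled reads. In both genes the background taken by the caller differed, at 4.00 reads in the knockdown and 1.37 in the control library for ORC5, and 1.17 and 4.98 for MCM7. The MCM7 summits also lay at different places, at 702 bp (knockdown) and -184 bp (control) from the outer start, which is shared with AP4M1. The MCM7 values therefore do not compare a single site. MCM4 and MCM5, also ring subunits, had gene-end folds of 20.5 and 6.89 in the knockdown list, against 26.4 and 9.75 in the control list.

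Helicase activation genes and polymerase genes were more mixed. DBF4, the activator of CDC7, had the highest ratio of all members, with 44.4 scaled reads in the knockdown and 35 in the control library (1.27, counting interval 0.779 to 2.07). The start of DBF4 is shared with SLC25A40, and the summits lay at -56 bp (knockdown) and 125 bp (control) from it. CDC7 itself had 40.8 scaled reads in the knockdown and 57 in the control library. CDC45 had 46.7 scaled reads in the knockdown and 42 in the control library, while GINS1 was level at 60.7 and 61, and GINS3, GINS2 and MCM10 had ratios of 0.685, 0.743 and 0.791. GINS4 had a gene-end fold of 18.1 in the knockdown and 21.5 in the control list. Among the polymerases the median ratio was 0.951, above the median of all genes. POLA2, the regulatory subunit of polymerase alpha, had the lowest ratio among them, with 46.7 scaled reads in the knockdown and 79 in the control library (0.591, counting interval 0.394 to 0.875). POLD2 and POLD1, subunits of polymerase delta, had ratios of 1.12 and 1.03, and the primase genes PRIM1 and PRIM2 0.960 and 1.05. The PRIM2 summits lay at -777 bp (knockdown) and -914 bp (control) from an annotated start well inside the gene. They were 92488 and 92351 bp from the outer end. POLE, the catalytic subunit of polymerase epsilon, had 0.915, and its partners POLE4, POLE2 and POLE3 had 0.951, 0.771 and 0.758. POLD3, an accessory subunit of polymerase delta, had a gene-end fold of 6.97 in the knockdown and 17.3 in the control list.

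Fold enrichment over the local background, the authors' own measure, was lower as well. Reads were recovered from this fold, so the 2 measures are not independent, and the fold was not divided by the depth ratio. At the start summits its median ratio was 0.729 over the 39 members and 0.821 over all genes, and it was below 1 for 32 members (82.1%, against 70.9% of all genes). At gene ends the median was 0.729 for the 41 members with a summit in both lists and 0.827 over all genes. RRM1, ORC5, ORC2, POLD3 and POLE2 had the lowest gene-end ratios, from 0.294 to 0.461, and MCM7, DBF4, PRIM1, PRIM2 and POLD2 the highest, from 1.80 down to 1.17. The gene-end summits of PRIM2 belong to other peaks than its start summits, within 1000 bp of an end of RAB23. The weakest knockdown gene-end folds besides RRM1 and PCNA were at ORC2 (5.80, against 15.0 in control), RFC5 (6.45, against 10.7) and GINS2 (6.86, against 8.86). The strongest were at RRM2 (29.2, against 48.5 in control), MCM7, TYMS (20.7, against 43.2), MCM4 and DBF4 (19.1, against 11.8).

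Start peaks were also narrower in the knockdown list, as they were over all genes. The median width was 1007 bp in the knockdown and 1622 bp in the control list for the 39 members, and 1103 and 1520 bp for all genes. The width was lower for 37 of 39 members (94.9%, against 84.6% of all genes), and under 0.5 times that of control for 6 (15.4%, against 15.3%). These 6 were MCM3, POLA2, RFC3, RFC5, GINS2 and TYMS. At TYMS the start peak spanned 1982 bp in the knockdown and 5196 bp in the control list. MCM10 and POLD2 were the 2 members with a wider knockdown peak.

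**Figure D2:**
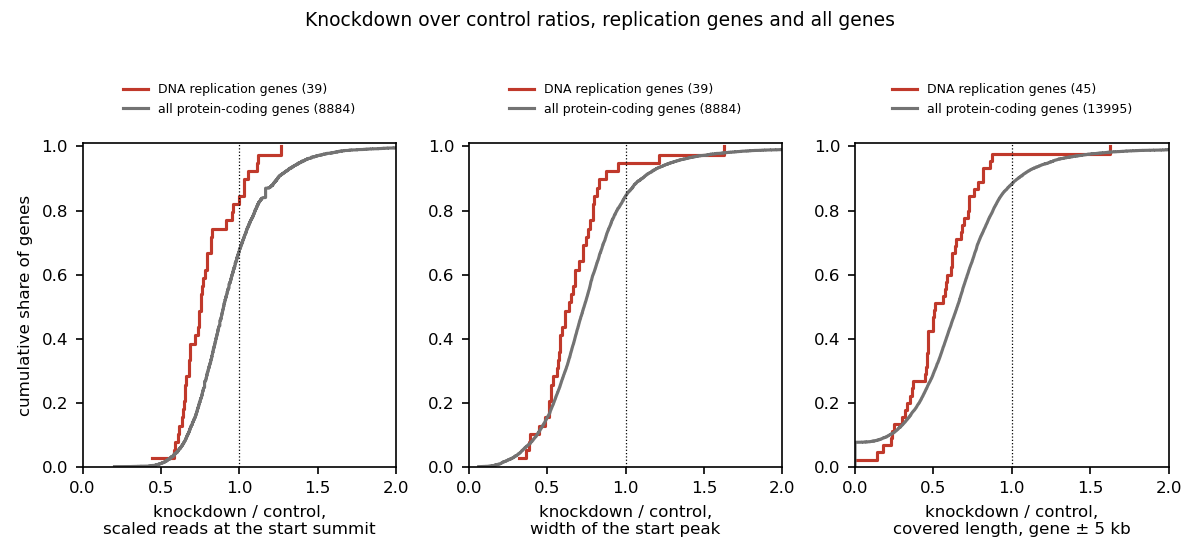
Cumulative share of genes (y axis) by the knockdown over control ratio (x axis, up to 2) of scaled reads at the start summit, of start peak width and of covered length. Red lines are the DNA replication genes and grey lines all protein-coding genes; the red line lies to the left at the middle of each panel, with medians of 0.755 and 0.9001, 0.638 and 0.735, and 0.511 and 0.652.

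Away from the starts the replication genes held fewer peaks in the knockdown list, a difference that shrank when both lists were held to the same number of peaks. In all, 103 knockdown peaks and 158 control peaks touched the windows of the 45 members, from whole lists of 26387 and 36345 peaks. With the control list reduced to its 26387 strongest peaks, the members had 103 knockdown and 109 control peaks. Of the knockdown peaks 94 (91.3%, 95% Wilson interval 84.2 to 95.3) were overlapped by a control peak, against 85.5% over the windows of all genes. Of the control peaks 78 (49.4%, 41.7 to 57.1) were overlapped by a knockdown peak, against 55.7% over all genes, and with equal numbers of peaks these were 73 of 109 (67.0%) for the members and 14452 of 20633 for all genes. The 80 control peaks without a knockdown partner were weak, with a median of 14 reads and 484 bp, against 40 reads and 1524 bp for the overlapped ones.

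By zone, the 41 members with an annotated start had 23 knockdown and 46 control summits in the gene over 1000 bp from a start. Of those 46 control peaks 36 had no knockdown peak over them (78.3%, against 66.1% over all genes). With equal numbers of peaks both lists had 23, and 13 of the control peaks were not overlapped (56.5%, against 52.8%). After the gene the lists had 24 and 56 peaks that reached into the 5000 bp window, and 37 of the 56 control peaks were not overlapped (66.1%, against 50.1%). With equal numbers this was 20 of 36 (55.6%, against 35.5%). At the starts 2 of 43 control peaks were not overlapped (4.65%, against 11.9%), and 1 of 42 with equal numbers (2.38%, against 7.58%).

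Peaks covered 94806 bp of the members' windows in the knockdown list and 191698 bp in the control list. The median ratio per gene was 0.511, against 0.652 over all 13995 genes with a control peak. Coverage was lower in the knockdown list for 44 of 45 members, against 88.2% of all genes, and under 0.5 times that of control for 21 (46.7%, against 29.1%). No member had over 2 times as much, against 0.993% of all genes. With equal numbers of strongest peaks the median ratio was 0.614 for members and 0.713 for all genes, with 42 of 44 members lower (95.5%, against 84.5%) and 13 under 0.5 times (29.5%, against 21.6%).

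In gene bodies the count depended on how a covered body was defined. A body was taken as the stretch from 1000 bp after the last annotated start to the gene end, of at least 4000 bp and with no end of another gene within 1000 bp. Of 28 members with such a body and start summits in both lists, 6 had body coverage in the knockdown list (21.4%, against 26.3% of all genes) and 18 in the control list (64.3%, against 43.9%). Of the 18, 12 had none in the knockdown list (66.7%, against 46.2%). Their control coverage ran from 38 bp (DBF4) to 1112 bp (PCNA), and at DBF4, MCM6 (40 bp), PRIM1 (120 bp) and CDC7 (158 bp) it was the far edge of the start peak. At PCNA, POLE, MCM2 and POLA2 that edge made up part of the control body coverage. With a summit required inside the body, 5 bodies counted in the knockdown and 14 in the control list, 9 of them in control only (64.3%, against 48.9% of all genes). With equal numbers of strongest peaks 13 bodies were covered in the control list, 8 in control only (61.5%, against 41.5%), and 1 body in the knockdown list only. With both conditions, 5 bodies had a summit in the knockdown and 6 in the control list, with 2 in control only (33.3%, against 36.8%). Covered body length was 6671 bp in the knockdown and 27314 bp in the control list, a ratio of 0.244, against 0.442 over 5655 genes. RRM2 alone held 12804 of those control bases, and the ratio was 0.296 without it. With equal numbers of strongest peaks the ratios were 0.340 for members and 0.552 for all genes.

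**Figure D3:**
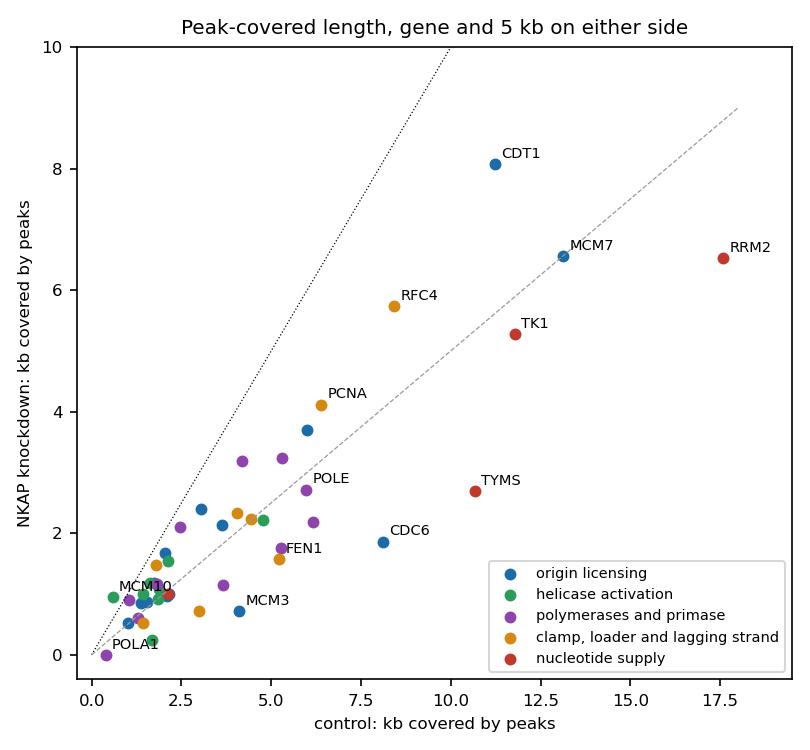
Length covered by peaks within each of the 45 genes and 5 kb on either side, in kb, with the NKAP knockdown list on the y axis and the control list on the x axis; each point is a gene, coloured by role. The dotted line marks equal lengths and the dashed line 0.5 times the control length; MCM10 is the only member above the dotted line, and TYMS and RRM2 lie farthest below it.

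The largest losses of covered length were at RRM2, TYMS, MCM7, TK1 and CDC6. RRM2 had 6521 bp covered in the knockdown and 17587 bp in the control list. Besides the start peak, the knockdown list held 3 peaks, with summits 13757 to 15088 bp from the start. The control list held 9 peaks in the annotated span of 88443 bp, with summits 3039 to 23488 bp from the start, and 1 peak 2807 bp after its end. Ends of transcripts inside this span were not examined, so these peaks may not all lie within a transcript of RRM2. TYMS had 2687 bp covered in the knockdown and 10668 bp in the control list, and CDC6 1860 and 8113 bp. MCM7 had 6554 and 13125 bp, and TK1 5276 and 11791 bp. At TYMS the control peaks with summits 4144 and 5044 bp from the start lay within 1000 bp of an end of ENOSF1. They cannot be assigned to either gene, and the 5000 bp after TYMS were not free of other genes. At CDC6 control peaks lay 230, 835 and 2016 bp after the gene end with no end of another gene within 1000 bp of them. A further control peak lay near RARA, and the knockdown list had no peak after the gene. MCM3 had 4 control peaks between 1419 and 3910 bp after its end and none in the knockdown list. FEN1 had control peaks 799, 1285 and 3097 bp after its end, the last 2 within 1000 bp of an end of FADS1, and the knockdown list again had none there. POLE2 had 5 control peaks after its end and 1 knockdown peak, at 2095 bp. Peaks after MCM7, TK1, RFC4, LIG1, POLE and PCNA also lay within 1000 bp of ends of COPS6, SYNGR2, EIF4A2, PLA2G4C, P2RX2 and TMEM230, and cannot be assigned to either gene. The same held for some peaks after POLD2, RFC2, CDC45, POLD1, PRIM1, GINS2 and CDT1, near AEBP1, LAT2, CLDN5, SPIB, NACA, GSE1 and APRT. After TK1, 2397 bp were covered in the knockdown and 4798 bp in the control list. Of the members with start summits in both lists, 16 had a window of 5000 bp after the gene free of other genes. Among these windows, 3 were covered in the knockdown list (18.8%, against 13.2% of all 4721 such windows). In the control list 6 were covered (37.5%, against 20.2%), 3 of them in control only (50%, against 43.8%). At PRIM1 the 270 bp of control coverage were the edge of a peak near NACA. With equal numbers of strongest peaks 4 were covered in the control list and 1 of these in control only (25%, against 32.9%). The length covered there was 1046 bp in the knockdown and 6639 bp in the control list, a ratio of 0.158, against 0.528 over all genes, and 0.326 against 0.661 with equal numbers.

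The number of peaks did not follow the covered length at every gene. TK1 had 11 knockdown and 3 control peaks, and CDT1 had 5 and 2, although the knockdown list covered less of both genes. At TK1, 4 knockdown peaks of 240 to 614 bp in the gene stood within the stretch of a single control peak of 4455 bp. At CDT1, all 5 knockdown peaks lay under the single control peak that spanned the gene. MCM10 was the only member with more coverage in the knockdown list, at 946 bp against 581 bp in control, although its start had 24.5 scaled reads in the knockdown and 31 in the control library. The smallest losses were at POLE4, RFC1, POLE3 and ORC6, with knockdown minus control differences between -379 and -132 bp.

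**Figure D4:**
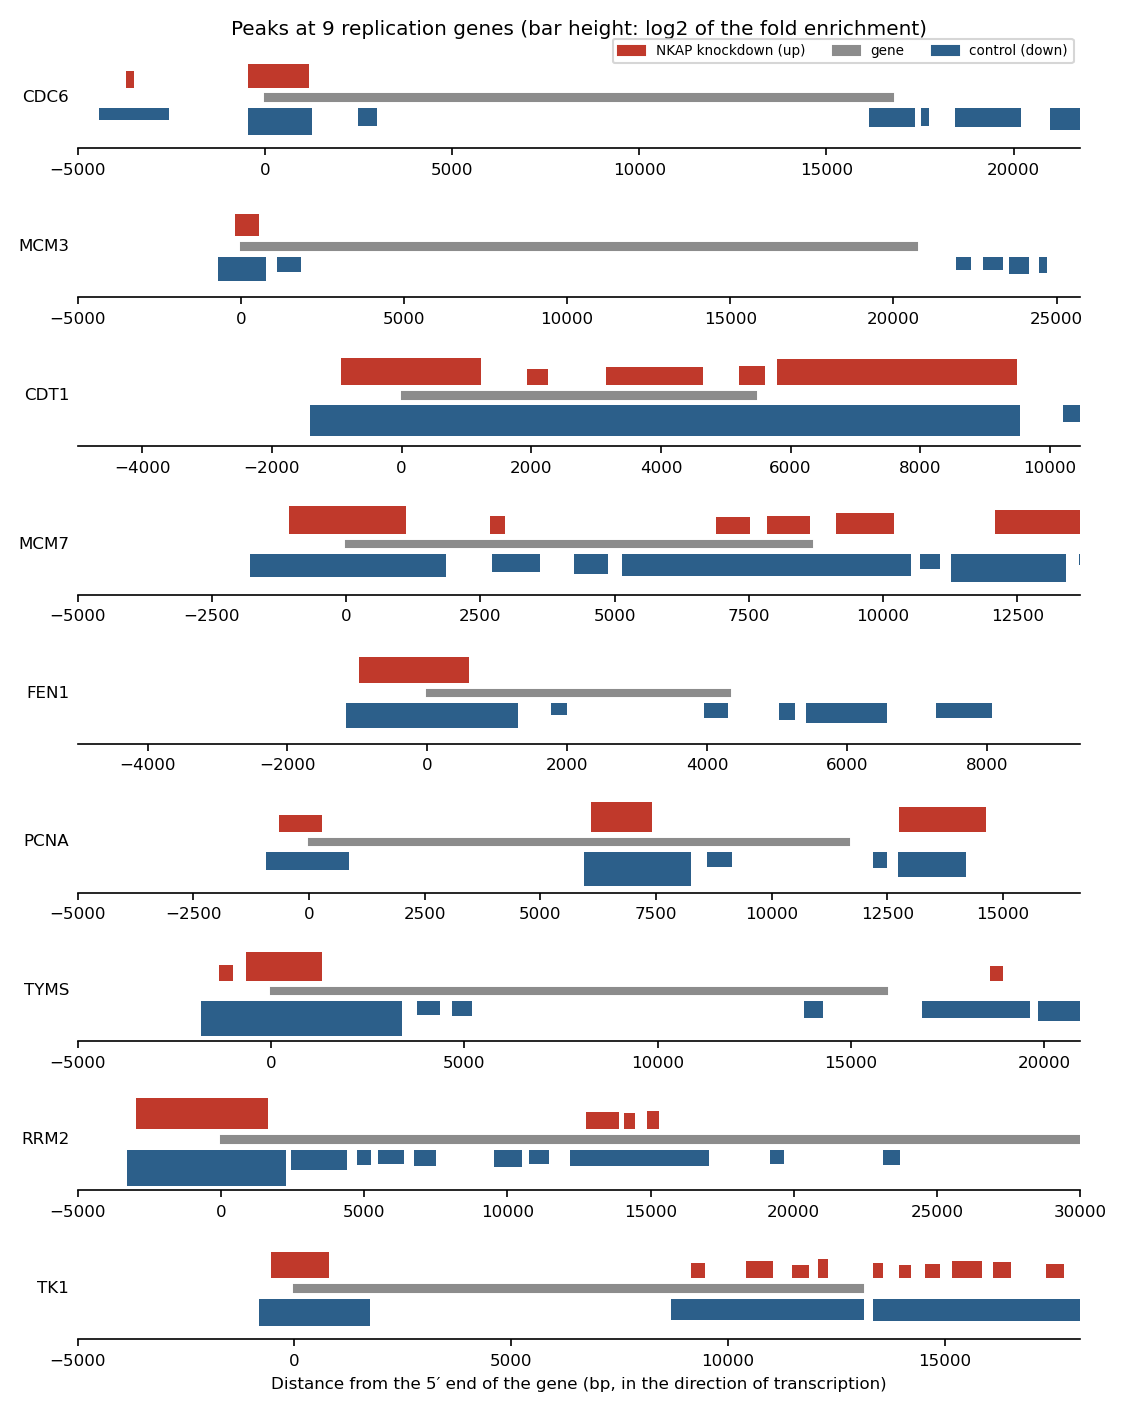
Peaks of 9 members along the gene (x axis, bp from the 5′ end in the direction of transcription; RRM2 is shown to 30 kb); the grey bar is the annotated gene. Red bars above it are knockdown peaks and blue bars below it control peaks, with height the log2 of the fold enrichment on 1 scale; control peaks after the ends of CDC6, MCM3 and FEN1 have no knockdown peak above them, and the wide control peaks of CDT1 and TK1 stand against several short knockdown peaks.

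Many of the starts are shared with a neighbour that is transcribed the other way. Another protein-coding gene had an annotated start on the opposite strand within 1000 bp for 12 of 41 members (29.3%), against 13.6% of all 15811 genes. Among genes with a start summit in both lists, the figures were 12 of 39 members (30.8%) and 20.8%. Of the licensing genes 6 of 12 had such a partner, namely ORC1 with PRPF38A, ORC3 with RARS2, ORC4 with MBD5, ORC6 with VPS35, MCM2 with TPRA1 and MCM7 with AP4M1. Outside licensing, the partners were SLC25A40 (DBF4), PXMP2 (POLE), C9orf43 (POLE3), TMEM258 (FEN1), AFMID (TK1) and, at the outer end of PCNA, CDS2. Peaks at gene ends of MCM4, CDC45, PRIM2, POLD1 and LIG1 lay within 1000 bp of ends of PRKDC, UFD1, RAB23, NR1H2 and ZSWIM9. At these starts and ends the peaks cannot be assigned to either gene. The ratio of scaled reads was 0.777 for the 12 members with a partner and 0.740 for the 27 without, against 0.885 and 0.902 over all genes of each kind. Members with and without E2F letters had medians of this ratio of 0.771 (9 genes, 0.444 to 0.995) and 0.738 (30 genes, 0.584 to 1.27).

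A further 38 genes of replication, among them the RPA, CHAF1 and RNASEH2 subunits, origin firing factors and nucleotide enzymes, had a peak in both lists for all 38. Start summits in both lists were found for 27 of the 28 with an annotated start, and CHTF18, of the alternative clamp loader, had one in the control list only (7.02-fold, 20 reads). Gene-end summits were in both lists for 35, in the knockdown list only for RECQL4 and in the control list only for CHTF18, and RPA3 had none in either. Their median ratio of scaled reads was 0.844, between that of the members and that of all genes (0.9001). It was below 1 for 23 of 27, against 67.2% of all genes. The lowest ratios, singled out after the values were seen, were at CHAF1B, a histone chaperone subunit that acts at the fork, with 11.7 scaled reads in the knockdown and 25 in the control library, and at TOP2A, the S and G2 phase topoisomerase, with 30.3 and 63. Covered length was lower in the knockdown list for 35 of the 38, against 88.2% of all genes, with a median ratio of 0.627, against 0.652.

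Among markers of bone cells, SPARC, COL1A1, SP7 and BGLAP had a gene-end summit in both lists, and RUNX2, COL1A2, ALPL, IBSP and SPP1 in neither. Of the markers of other cell types, none of 4 hepatocyte, 4 lymphocyte or 3 keratinocyte genes had one, and of 3 neuron genes SYT1 and SNAP25 had one in both lists. NKAP had 15.2 scaled reads (13 reads) at its start in the knockdown and 12 in the control library. An siRNA acts on the transcript, so this value is no check of the knockdown.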

How the data were processed

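The authors deposited 1 peak list for each Pol II ChIP library. MACS2 2.1.0, Bowtie 1.1.2, Trimmomatic 0.33 and bcl2fastq 2.17 are named, with build hg38, per the submitters' processing notes, without their settings. The deposited columns hold a score, the fold enrichment (a ratio over background), and the −log10 of the p-value and q-value of each summit, all the authors' own. The lists end at −log10 q-values of 3.02 (knockdown) and 3.01 (control), with 26387 and 36345 peaks on chromosomes 1 to 22 and X.

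Reads at each summit were recovered as the whole number that gives the deposited fold and p together (within 0.001 on the −log10 scale for 100% of peaks), after scaling of knockdown reads by 0.926. The smallest peak widths, 225 and 229 bp, stood in for fragment lengths in the depth estimate. Summits are maxima and may lie at different bases in each list. Intervals of read ratios cover counting error only. Wilson intervals of shares treat each peak as an independent draw and measure no spread between replicates. Peaks were called overlapping when they shared 1 bp. Recovery and counts were tested on simulated data. Python 3.11.15, pandas 2.3.3, NumPy 2.4.6 and SciPy 1.17.1 were used.

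The genes, groups and lists were chosen with earlier results of these data known. Genes named by rule were the members in a single list, the 5 highest and 5 lowest by knockdown gene-end fold and by its ratio, and the 5 with the largest loss and gain of covered length; other members are named by role. The planned measure was the gene-end summit; annotated starts came from the RefSeq promoter table and were added after the data were seen, as were the measures by zone. Bone and other cell type markers were checked by gene-end summit.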

Additional observations from a re-analysis of the deposited data

How the results depend on the processing

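The cause of a change with the settings was not tested. Of 71 values recomputed, 63 stayed close to the reported value (counts within 1.5 times, shares and medians within their intervals), and 8 moved. With equal numbers of strongest peaks, 67.0% of the members' control peaks were overlapped by a knockdown peak, in place of 49.4%, and 1 window after a member was covered in control only, in place of 3. With a summit required inside the body as well, 2 bodies were covered in control only, in place of 12; these body and after-gene settings were added after the data were seen. The members' control peaks numbered 109 in place of 158 with equal numbers, close to the 103 of the knockdown list. Without peaks within 1000 bp of an end of another gene, 25 members had a gene-end summit in both lists, in place of 41. In this setting 62 knockdown and 105 control peaks were left, and 79.0% of knockdown peaks and 40.0% of control peaks were overlapped. No shares over all genes are given for it. Windows of 2000 and 10000 bp, a −log10 q of at least 5, summits in the window, gene-end summits within 500 bp, scaled reads in place of folds, annotated starts in place of gene ends, and an overlap of 0.5 of the shorter peak moved none of the values they were applied to by more than that. No paired analysis was possible because each arm had 1 library. No library could be left out for the same reason. A region without a peak can hold Pol II below the authors' threshold. The knockdown depth was estimated at 0.857 times that of control, the read ratio rests on that estimate, and the part of depth in the missing weak peaks was not tested beyond the equal numbers of peaks.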
